A study of Mus musculus with 11 samples.

Results

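Cadherins and catenins hold neighbouring cells together, and their promoters were examined for reads from a chromatin immunoprecipitation (ChIP) of ST18, a transcription factor with zinc fingers of the MYT1 type. The 39 genes were all those of the deposited promoter table, out of 21881, whose symbol is Cdh, Dsc or Dsg followed by a number, or begins with Ctnna or Ctnnd. They comprise 5 type I cadherins, 13 type II cadherins, 6 other cadherins, 9 desmosomal cadherins and 6 catenins. The rule used names only and no measured value, but it was set with earlier results of these data known. The series describes 11 mouse samples. The ChIP part has 2 libraries from HA-tag ChIP and 1 library of input genomic DNA, all from cultured brain cells that the labels name TN without spelling it out. The other 8 samples are RNA libraries of cortical cells sorted for GFP at embryonic day 16.5 after electroporation at E12.5, with 4 libraries of ST18 knockdown and 4 of a non-targeting control, and these were not analysed here. The electroporation and sorting protocol is also entered for the ChIP samples, although their sample type is given as in vitro. The labels give no strain or age for the culture, and do not say which promoter or vector drove the tagged ST18. Read counts at promoters do not measure expression, so the cell type of the culture could not be checked against markers.

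Classical cadherins are transmembrane proteins that bind the same or related cadherins on the next cell through calcium-dependent ectodomains. Their cytoplasmic tails bind β-catenin and the δ-catenin p120, and α-catenin links this complex to actin. Type I cadherins share a conserved tryptophan and a short tripeptide motif at the adhesive interface, whereas type II cadherins lack that motif and are expressed in finely divided patterns in the nervous system. In the embryonic cortex, N-cadherin junctions anchor radial glia at the ventricular surface, and cells lose these junctions when they delaminate. Desmogleins and desmocollins are the cadherins of desmosomes, which connect to intermediate filaments.

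RefSeq promoter sequences (build GRCm38.p6) were matched by symbol for 18 of the 39 genes. Those shown are the 2 highest and the 1 lowest of the type I and type II cadherins by log2 enrichment among the genes with such a sequence. The letters at both ends of that subset can so be compared. Each is the 250 bases before the RefSeq start, 5′ to 3′ in the direction of the gene. Capitals mark AAGTT or its reverse complement AACTT, the core recognised by MYT1 family zinc fingers. The counted windows were made on mm9 and where they lie relative to these starts is not stated. Cdh6, a type II cadherin, lies at chr15:13173676-13173925, minus strand, and held 22 ST18 reads against 4 input reads.
Cdh6: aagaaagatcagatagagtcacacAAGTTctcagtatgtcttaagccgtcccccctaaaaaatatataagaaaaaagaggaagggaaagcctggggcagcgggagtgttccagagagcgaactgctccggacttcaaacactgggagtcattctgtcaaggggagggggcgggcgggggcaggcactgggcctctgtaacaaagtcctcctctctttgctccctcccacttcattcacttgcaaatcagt
Cdh15, the type I cadherin of muscle known as M-cadherin, lies at chr8:122848124-122848373, plus strand, and held 25 ST18 reads against 5 input reads.
Cdh15: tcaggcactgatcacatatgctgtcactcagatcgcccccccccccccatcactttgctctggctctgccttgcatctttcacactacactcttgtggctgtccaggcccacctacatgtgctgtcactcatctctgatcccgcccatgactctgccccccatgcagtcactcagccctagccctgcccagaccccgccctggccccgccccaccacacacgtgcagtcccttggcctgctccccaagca
Cdh12, a type II cadherin of the brain, lies at chr15:21111202-21111451, plus strand, and held 17 ST18 reads against 13 input reads.
Cdh12: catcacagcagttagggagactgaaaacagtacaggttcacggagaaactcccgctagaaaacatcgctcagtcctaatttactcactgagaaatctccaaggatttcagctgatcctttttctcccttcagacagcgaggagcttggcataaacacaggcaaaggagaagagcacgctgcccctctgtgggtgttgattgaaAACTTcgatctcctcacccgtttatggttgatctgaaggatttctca

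The core motif occurred 1 time in the Cdh6 sequence and 1 time in that of Cdh12. These are the highest and the lowest of the type I and type II cadherins that have a sequence. The motif was not found in these letters of Cdh15. The 18 genes with a sequence were 1 type I, 10 type II and 2 other cadherins and 5 catenins, with 0 of the 9 desmosomal cadherins. Cdh5, Dsc3 and Cdh13 had no sequence, so the shares below do not cover them or the desmosomal class. Type II genes gave 12 of the 23 sequences. Over the 23 promoter sequences of the 18 genes, 8 (34.8%) held AAGTT on either strand, against 35.3% of all 32851 RefSeq promoters of the same length. The longer form AAAGTTT, which contains the core, was found in 1 of the 23 (4.35%), an alternative promoter of Ctnnd1, against 4.20% of all promoters. CACCTG, the E-box bound by Snail family factors, was found in 3 of the 23 (13.0%), in 2 of the alternative promoters of Cdh7 and in Ctnna2, against 17.2% of all. GC content ranged from 36.8% in Cdh10 to 77.6% in Cdh22, with a median of 58.0% against 52.4% over all promoters.

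Each promoter window was 1000 bp long and had 1 ST18 count and 1 input count. The ST18 column held 438960 reads in all and the input column 160443, a ratio of 2.74. All 39 windows held reads, with a median of 20 ST18 reads (range 8 to 37) and 6 input reads (range 2 to 16), against medians of 20 and 7 over all windows. The 2 labelled ChIP samples are represented by a single ST18 column, so no value has a replicate. The log2 enrichment is the authors' deposited value, which adds 16 to both counts and so lies close to 0 for windows with few reads. The fold is the ST18 to input ratio of a window divided by 2.74, and its exact (Clopper-Pearson) 95% interval covers counting error only. The log2 enrichment uses the authors' own scaling, which lies 0.15 log2 above that of the promoter totals before 16 is added. A log2 enrichment of 0 is therefore not a fold of 1, and the median of all windows was 0.04.

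As a whole, cadherin and catenin promoters held ST18 reads in nearly the same proportion to input as other promoters. Summed over the 39 windows there were 807 ST18 and 294 input reads, 1.003-fold the ratio of all promoters (exact 95% interval 0.877 to 1.15). The median log2 enrichment was 0.05 for the 39 genes and 0.04 for all windows, and 21 of 39 lay above the median of all windows and 18 below it, beside 49.6% and 49.9% of all windows. The values ranged from −0.49 for Cdh13 to 0.61 for Cdh5, with an SD across genes of 0.240 against 0.225 across all windows. Each window was compared with the overall ratio by a two-sided exact binomial test. With Benjamini-Hochberg adjustment over the whole table it called 0 of the 39 higher and 0 lower, beside 0.0366% and 0.00914% of all windows. This test compares the reads of 2 columns, not conditions.

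**Figure D1:**
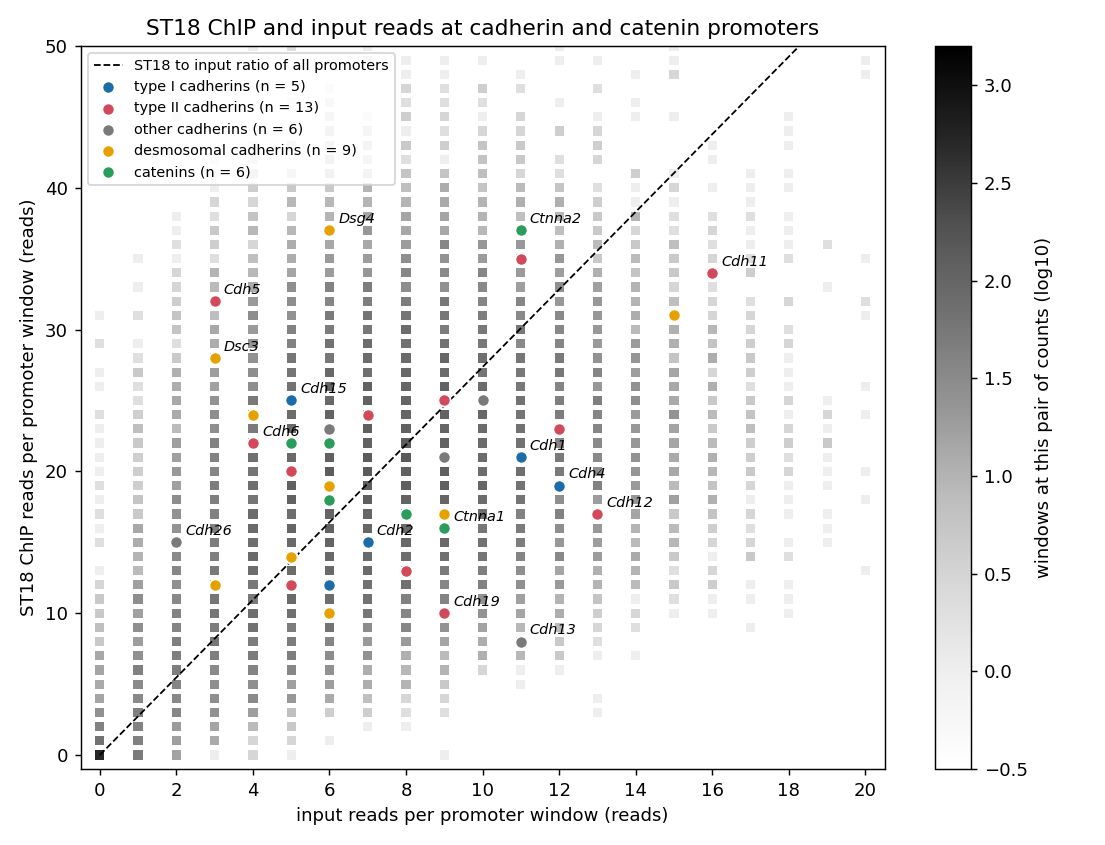
ST18 ChIP reads (vertical axis, reads per window) against input reads (horizontal axis, reads per window) for the 39 genes, coloured by class, over the density of all windows in grey; the dashed line is the ratio of all promoters, 2.74. The coloured points lie on both sides of the line within the grey cloud, with Cdh5 and Dsc3 above it at 3 input reads and Cdh13 below it at 8 ST18 reads; genes with equal counts (Cdh18 and Dsg1c, Cdh16 and Ctnnd1) overlap.

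Before adjustment, the exact test gave p below 0.05 for 2 of 39 windows on the higher side (Cdh5 and Dsc3) and 1 on the lower side (Cdh13), beside 2.49% and 4.39% of all windows. At a log2 enrichment of at least 0.58 there was 1 gene, Cdh5, beside 1.15% of all windows; this became 0 when scaled to the promoter totals or centred on the median of all windows. At −0.58 or below there were 0, beside 0.219%. None reached a log2 enrichment of 1, beside 0.0548% of all windows. The closest genes to these limits were Dsc3 at 0.53 and Cdh13 at −0.49.

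The type I cadherins, which include the E- and N-cadherins of epithelia and neuroepithelia, lay mostly on the low side, with Cdh15 apart. Their median log2 enrichment was −0.08, and 4 of the 5 lay below the median of all windows. E-cadherin, Cdh1, held 21 ST18 against 11 input reads, at a log2 enrichment of −0.14 and 0.698-fold (exact 95% interval 0.322 to 1.60). N-cadherin, Cdh2, the junctional cadherin of radial glia, held 15 against 7 reads, at −0.06 and 0.783-fold (0.301 to 2.27). The Cdh1 ratio was 0.891 times the Cdh2 ratio, with an exact interval from 0.234 to 3.25 that leaves room for a several-fold difference either way.

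P-cadherin, Cdh3, which neighbours Cdh1 in the genome with no protein-coding gene between them in RefSeq, held 12 against 6 reads, at −0.08 and 0.731-fold (0.254 to 2.37). R-cadherin, Cdh4, found in retina and brain, was the lowest of the class with 19 against 12 reads, at −0.24 and 0.579-fold (0.267 to 1.31). The muscle cadherin Cdh15, whose promoter is printed above, was the highest at 0.32 and 1.83-fold (0.687 to 6.11). All 5 intervals included 1, as did 36 of the 39, and the lowest adjusted p of the class was 0.884 (exact binomial test, Cdh4).

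Type II cadherins ranged from 0.61 to −0.34, around a median of 0.05 that is close to that of all windows. This range is wider than that of type I, but a range grows with the number of genes, here 13 against 5. The SD across genes was 0.263 for type II and 0.211 for type I, against 0.225 across all windows. VE-cadherin, Cdh5, the adhesion molecule of endothelial junctions, held 32 ST18 against 3 input reads, which placed it 188th of the 21881 windows. Its fold was 3.90 (exact 95% interval 1.22 to 19.9), and the call was not reached after adjustment (exact binomial test, adjusted p = 0.489). Cdh6, a cadherin of kidney and of regional boundaries in the neural tube, followed at 0.32 and 2.01-fold (0.683 to 8.02). The intervals of Cdh5 and Cdh6 overlap, so their order is not set by these reads.

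Next in order came Cdh7 with 20 against 5 reads, at 0.20 and 1.46-fold (0.532 to 4.99). Cdh22, expressed in pituitary and brain, held 24 against 7 reads, at 0.16 and 1.25-fold (0.524 to 3.44). Cdh8, which marks subsets of cortical and thalamic neurons, held 35 against 11 reads, at 0.16 and 1.16-fold (0.577 to 2.54). These windows differ little in log2 enrichment although Cdh8 rests on 46 reads and Cdh7 on 25, and the interval of Cdh8 is the narrower one.

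Cdh24 held 25 against 9 reads, at 0.06 and 1.02-fold (0.458 to 2.47). Cdh18 held 14 against 5 reads, at 0.05 and 1.02-fold (0.348 to 3.63). Cdh9, a cadherin of hippocampal synapses, held 12 against 5 reads, at −0.01 and 0.877-fold (0.288 to 3.18). These made up the middle of the class, with ratios near that of all promoters.

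On the low side, Cdh11, a cadherin of mesenchyme and of bone-forming cells, had the most reads of all 39 genes, 34 against 16, at −0.10 and 0.777-fold (0.417 to 1.51). Cdh20 held 23 against 12 reads, at −0.14 and 0.701-fold (0.335 to 1.54). Cdh10 held 13 against 8 reads, at −0.17 and 0.594-fold (0.228 to 1.65). The lowest of the class were Cdh19, a cadherin of Schwann cell precursors, and Cdh12.

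Cdh19 held 10 ST18 against 9 input reads, at −0.32 and 0.406-fold (0.148 to 1.13). Cdh12 held 17 against 13 reads, at −0.34 and 0.478-fold (0.219 to 1.07). Of the 13 type II intervals only that of Cdh5 left out 1, on the higher side. Before adjustment 2.49% of all windows had p below 0.05 on that side (exact binomial test). Cdh6, Cdh9, Cdh10 and Cdh12 follow each other in RefSeq with no other protein-coding gene between them, and Cdh12 and Cdh18 are separated by 1. Values along this run were 0.32, −0.01, −0.17, −0.34 and 0.05, with intervals that overlap from gene to gene.

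**Figure D2:**
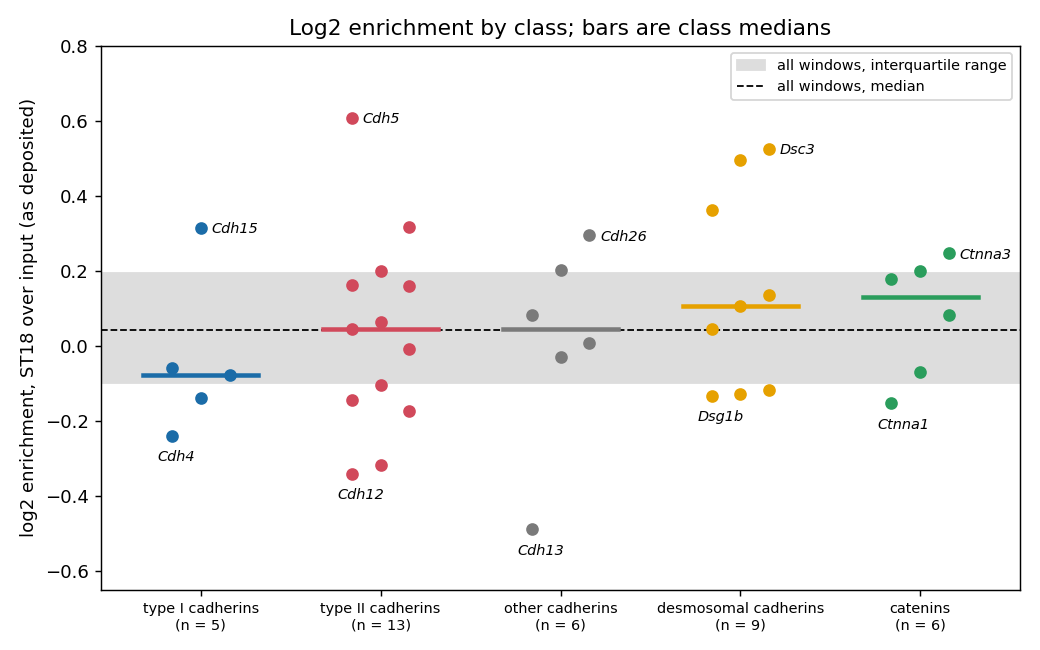
Deposited log2 enrichment of each promoter window (vertical axis, log2 of ST18 over input with the authors' pseudocount) by class, 1 point per gene, with class medians as bars and the interquartile range and median of all windows as band and dashed line. Of the type I points, 4 of 5 lie below the dashed line, while type II points lie on both sides from 0.61 for Cdh5 to −0.34 for Cdh12.

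The comparison of type I with type II cadherins addressed whether the 2 families of classical cadherins differ in ST18 reads. Type I windows held 92 ST18 and 41 input reads in sum, a ratio of 2.24 and 0.820-fold the overall ratio (exact 95% interval 0.562 to 1.22). Type II windows held 281 and 107 reads, a ratio of 2.63 and 0.960-fold (0.766 to 1.21). The type I ratio was thus 0.854 times the type II ratio, with an exact conditional 95% interval of 0.546 to 1.35 that includes 1. On the log2 scale the type I median was lower by a difference of −0.12. The ranges of both classes overlapped, since all 5 type I values fell between the lowest and the highest type II value. A difference between the families was not detectable at this depth, and with 5 and 13 genes that are not replicates no test of it was made.

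**Figure D3:**
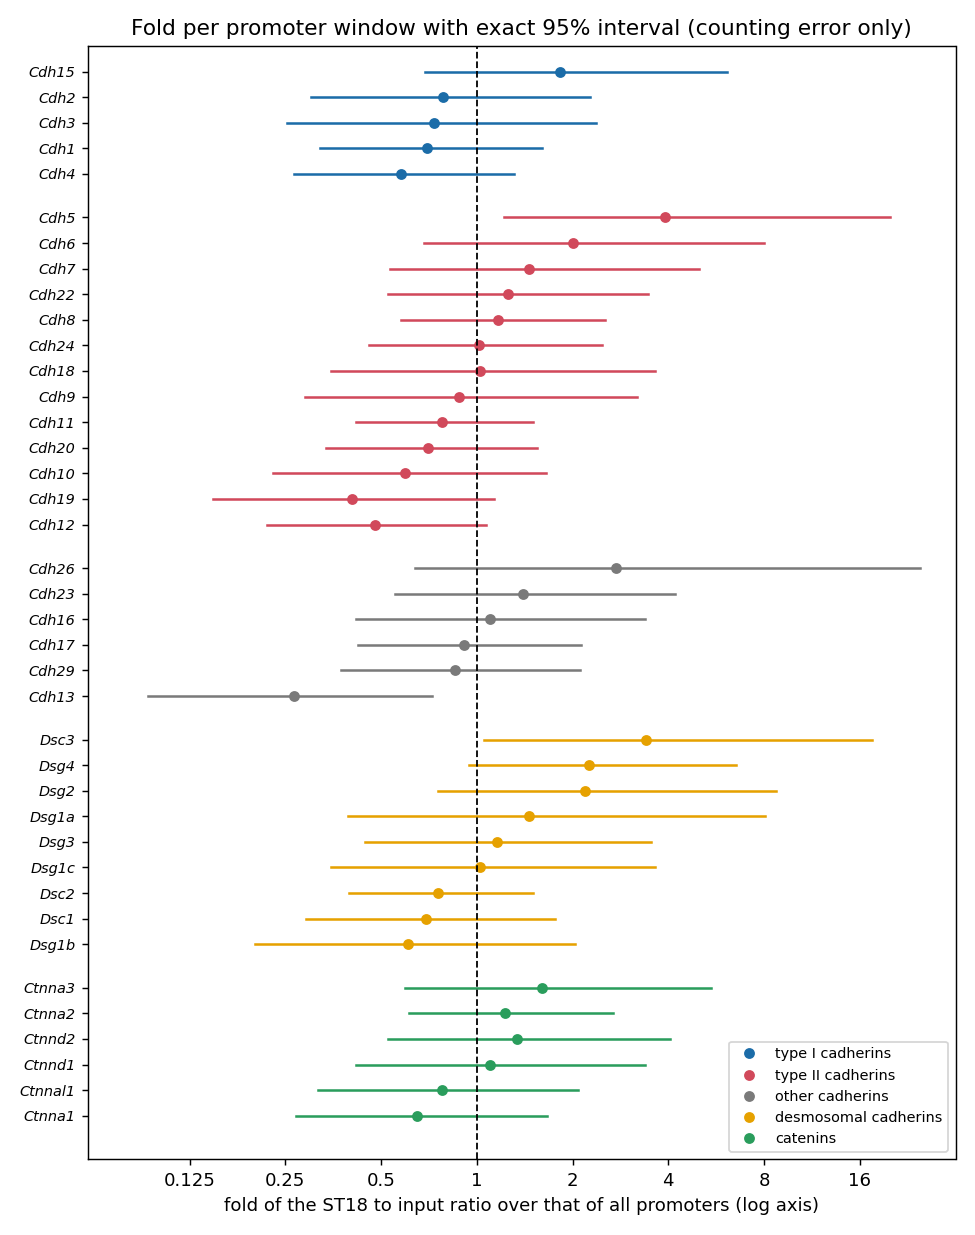
Fold of the ST18 to input ratio of each of the 39 windows over that of all promoters (horizontal log axis), with its exact 95% interval, grouped by class and ordered by log2 enrichment. The intervals of 36 genes cross the dashed line at 1, those of Cdh5 and Dsc3 lie above it and that of Cdh13 below it. By the matching test, doubling the smaller tail, 518 of all 21881 windows had p below 0.05 on the higher side before adjustment. On the lower side 709 did.

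Among the 6 other cadherins, T-cadherin, Cdh13, stood lowest of all 39 genes. This cadherin lacks the cytoplasmic tail and is anchored to the membrane by a lipid. Its window held 8 ST18 against 11 input reads, at −0.49 and 0.266-fold (exact 95% interval 0.0928 to 0.726). Adjustment over the table left it uncalled (exact binomial test, adjusted p = 0.446). Cdh26 was the highest of these at 0.29, with 15 against 2 reads, and its fold of 2.74 carried the widest interval of the 39 (0.638 to 24.7).

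Cdh23, a tip-link protein of inner ear hair cells, held 23 against 6 reads, a log2 enrichment of 0.20. Kidney cadherin, Cdh16, held 18 against 6 reads, at 0.08. Liver-intestine cadherin, Cdh17, held 25 against 10 reads, at 0.01, and Cdh29 held 21 against 9, at −0.03. The median of the 6 was 0.05, and their summed ratio was 0.914-fold that of all promoters (0.639 to 1.33).

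Desmosomal cadherins had the highest summed ratio of the 5 classes, though not the highest median, and all 5 intervals included 1. With 192 ST18 and 57 input reads they stood at 1.23-fold (exact 95% interval 0.912 to 1.69), with a median log2 enrichment of 0.11 and 6 of 9 genes above the median of all windows. Among the genes with at least 5 input reads, a limit that takes out Dsc3, Dsg2 and Dsg1a, the median was −0.04. Dsc3, the desmocollin of basal epidermal cells, was the highest, with 28 against 3 reads, at 0.53 and 3.41-fold (1.05 to 17.5), and did not pass adjustment (exact binomial test, adjusted p = 0.677). Dsg4, a desmoglein of the hair follicle, held 37 against 6 reads, at 0.49 and 2.25-fold (0.943 to 6.53). Dsg2, the desmoglein of simple epithelia and heart muscle, held 24 against 4 reads, at 0.36. Of the genes nearer to all promoters, Dsg3 held 19 against 6 reads, at 0.11, and the Dsg1 copies Dsg1a, Dsg1b and Dsg1c ranged from 10 to 14 ST18 reads and 3 to 6 input reads.

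The Dsg1 copies are close paralogs, and whether their windows are alike enough for short reads to be split between them was not checked. Their values of 0.14 for Dsg1a, 0.05 for Dsg1c and −0.13 for Dsg1b rest on few reads and are uncertain. Dsg1b was the lowest desmosomal gene, with 10 against 6 reads and 0.609-fold (exact 95% interval 0.201 to 2.04). The desmocollin genes Dsc2, with 31 against 15 reads at −0.12, and Dsc1, with 17 against 9 at −0.13, were the other low windows. In RefSeq the 9 genes form 1 run with no other protein-coding gene between them, in the order Dsc3, Dsc2, Dsc1, Dsg1c, Dsg1a, Dsg1b, Dsg4, Dsg3, Dsg2. The highest genes were not neighbours, since Dsc3 lies at one end, Dsg2 at the other and Dsg4 inside the run.

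Desmocollins summed to 76 ST18 and 27 input reads and desmogleins to 116 and 30. The desmocollin ratio was 0.728 times that of the desmogleins, with an exact interval of 0.385 to 1.38 that includes 1. Set against the 18 classical cadherins of types I and II together, the desmosomal ratio was 1.34 times as high, with an exact interval of 0.929 to 1.94 that includes 1 as well.

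**Figure D4:**
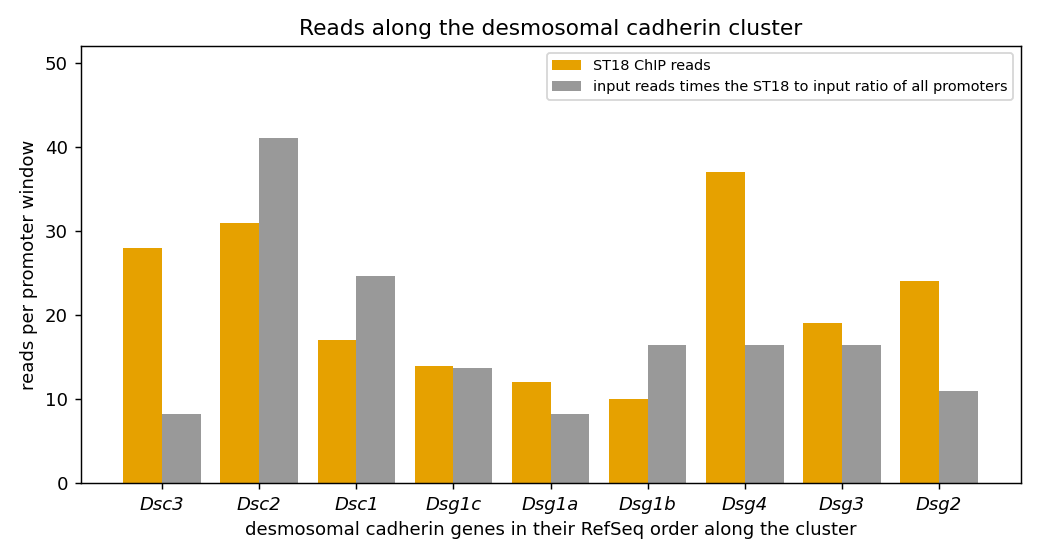
ST18 ChIP reads and input reads (the latter multiplied by 2.74, the ratio of all promoters) per promoter window for the 9 desmosomal cadherins, in RefSeq order along their cluster. ST18 bars exceed the scaled input bars most at Dsc3 and Dsg4, while at Dsc2, Dsc1 and Dsg1b the input bars are the taller.

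Catenin promoters lay close to all other promoters, with 132 ST18 and 45 input reads in sum, 1.07-fold (exact 95% interval 0.759 to 1.54). Their median log2 enrichment of 0.13 was the highest of the 5 classes, and 4 of 6 genes lay above the median of all windows. The α-catenin of epithelia and progenitors, Ctnna1, was the lowest, with 16 against 9 reads, at −0.15 and 0.650-fold (0.270 to 1.67). Its neural counterpart Ctnna2 held 37 against 11 reads, at 0.20 and 1.23-fold (0.614 to 2.67). The ratio of Ctnna1 was 0.529 times that of Ctnna2, with an exact interval of 0.162 to 1.76, so a difference between these paralogs was not detectable at this depth. Ctnna3, the α-catenin of heart and testis, was the highest at 0.25, with 22 against 5 reads and 1.61-fold (0.594 to 5.44).

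Ctnnal1, which encodes the α-catenin relative α-catulin, held 17 against 8 reads, at −0.07 and 0.777-fold (0.318 to 2.08). Ctnnd1, which encodes p120-catenin and controls how long cadherins stay at the surface, held 18 against 6 reads, at 0.08 and 1.10-fold (0.417 to 3.37). Ctnnd2, the neural δ-catenin, held 22 against 6, at 0.18 and 1.34-fold (0.527 to 4.04). The Ctnnd1 ratio was 0.818 times the Ctnnd2 ratio, with an exact interval of 0.184 to 3.67 that includes 1. The pairs Cdh1 and Cdh2, Ctnna1 and Ctnna2, and Ctnnd1 and Ctnnd2, and the sums of desmosomal genes, were chosen for comparison after the values were seen.

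Other genes of the adhesion machinery were taken from 2 lists written by function. Of the junction partners and scaffolds, 21 of 25 symbols were in the table, the 4 others being newer symbols of listed genes. Their median log2 enrichment was 0.13, 14 of 21 lay above the median of all windows (49.6% of all windows do), and the adjusted exact test called 0 in either direction, beside 0.0366% of all windows higher and 0.00914% lower. Before adjustment it gave 1 higher, Pkp1, and 1 lower, Numbl, beside 2.49% and 4.39%. Pkp1, a plakophilin of desmosomal plaques, was the highest at 0.64, with 26 against 1 reads, and Ctnnb1, β-catenin, followed at 0.38 with 31 against 6. Numbl, a Notch regulator that also maintains cadherin junctions in radial glia, was the lowest at −0.38 with 8 against 9 reads, before Pkp2 at −0.29 with 13 against 10.

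Of the other cadherin superfamily genes, 17 of 18 symbols were in the table, with a median of −0.02 and 8 above the median of all windows, beside 49.6%. The adjusted exact test called 0 of them in either direction, beside the same 0.0366% and 0.00914%. Their highest members were Cdhr3 at 0.27, with 32 against 8 reads, and the giant cadherin Fat2 at 0.27, with 26 against 6. Cdhr2 at −0.18, with 17 against 10 reads, and Dchs1 at −0.16, with 20 against 11, were the lowest.

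The number of reads set what could be called. To join the windows that passed adjustment a window needed an unadjusted exact p of at most 2.51e-05, and on the higher side this takes 37 or more reads even if every one of them is an ST18 read. Only 5 of the 39 windows had that many (Cdh8, Cdh11, Dsg4, Dsc2 and Ctnna2), so the other 34, Cdh5 and Dsc3 among them, could not have been called higher whatever their split. The same need of 37 reads held for the junction partners and the other cadherin superfamily genes, with medians of 30 and 29 reads. Pkp1, with 27 reads, could not have been called higher either. Some genes of these lists had enough reads, such as Ctnnb1 with 37 and Cdhr3 with 40, and were not called. For a lower call, 9 reads that are all input would be enough, and every one of the 39 had more. Such a split is an extreme, and the probability of finding a lower ratio was not computed. At an unadjusted p of 0.05, a window with a true 2-fold ratio would be found with a probability of 21.2% at the median gene (range 4.94% to 42.0%), and one with a true 4-fold ratio with a probability of 65.05% (range 20.7% to 91.3%). At the cutoff of the adjusted calls, the highest probability among the 39 was only 0.417% for a true 2-fold ratio. For a true 4-fold ratio it was 9.32%.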

How the data were processed

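The deposited promoter table gave whole-number read counts, made by the authors, in 1000 bp windows for 1 ST18 column and 1 input column, and the authors' log2 enrichment. The submitters' processing notes name mm9, Bowtie, TopHat2 2.0.8, HTSeq 0.5.4p1, edgeR and MACS2 2.0.10.20120913 without saying which made the table; whether duplicates were removed or the ChIP libraries pooled is not stated. The deposited log2 was recovered within 1e-06 in 21881 windows by scaling ST18 counts by 0.406, adding 16 to them and to the input counts, and taking the log2 of the quotient. At 438960 ST18 and 160443 input reads, precision is limited by counting. Without molecular identifiers, reads can be copies of one molecule, and intervals cover counting error only.

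Windows were compared with the overall ratio by a two-sided exact binomial test (SciPy 1.17.1), Benjamini-Hochberg adjusted over 21881 windows, of which 523 held no reads. The script was tested on simulated data, with changes planted in windows holding more reads than any of the 39. Recovery of changes at the depth of the 39 windows was not simulated. Members and lists were chosen with earlier results of these data known. All 39 genes were to be named, with the 2 highest and 2 lowest of each further list. Pseudocounts, scaling, centring, an input minimum of 5 reads, thresholds and class definitions were varied. The window width in bp is as deposited. The peak list was not used, since the windows carry no positions.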

Additional observations from a re-analysis of the deposited data

How the results depend on the processing

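The 0 genes called in either direction by the adjusted exact test stayed 0 with at least 5 input reads, with the authors' scaling and with p by doubling the smaller tail, which was chosen after seeing the data. Over all windows these settings moved the 8 higher calls to 4, 20 and 8, and left the 2 lower calls at 2. In the main setting 34 of the 39 windows had too few reads for a higher call, so the unchanged 0 on that side shows little. How much the unchanged 0 on the lower side shows was not examined. The input minimum also takes out Cdh5 and Dsc3. Unadjusted, 2 were called higher and 1 lower, also with the doubled tail, although the doubled tail moved the numbers over all windows from 544 to 518 higher and from 961 to 709 lower. The 1 gene at or above a log2 enrichment of 0.58 became 3 with a pseudocount of 8 and 9 with a pseudocount of 1 (1527 and 5272 of all windows), and 0 when scaled to the promoter totals, when centred, with at least 5 input reads (Cdh5 has 3) and at a threshold of 1. The 0 genes at or below −0.58 became 1 and 3 with pseudocounts of 8 and 1 (568 and 2872 of all windows), and stayed 0 otherwise. A smaller pseudocount draws values less towards 0 by construction.

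The type I minus type II difference was negative under all 8 alternatives, from −0.41 (pseudocount 1) to −0.07 (at least 5 input reads). The alternatives include the difference of means and the log2 ratio of summed reads. All rest on the same reads, and the interval of the ratio of summed reads, 0.546 to 1.35, includes 1. Over the alternatives for the class medians, which include the class mean, type I ranged from −0.25 (median, pseudocount 1) to −0.04 (mean). Catenins ranged from 0.08 (mean) to 0.33 (median, pseudocount 1). The other medians changed sign: type II to −0.01 and desmosomal cadherins to −0.04 with at least 5 input reads, and other cadherins to −0.01 when scaled to the promoter totals. The input minimum acts on the denominator of the enrichment, so by construction it takes out genes such as Cdh5, Cdh6, Dsc3, Dsg2 and Dsg1a and lowers these medians. That scaling moved the median of all windows by −0.04. These shifts were within the counting intervals of the summed reads. Not run were fits without each ChIP replicate and overlaps of peaks with these genes, for which the columns and window positions are lacking. No paired analysis was possible because there is only a single ST18 column and a single input column.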

Other observations

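RefSeq lists Cdh29 as a synonym of Cdhr4, a cadherin-related gene, and the promoter table holds a window under each symbol. The Cdh29 window had 21 ST18 and 9 input reads and the Cdhr4 window 22 and 8, at log2 enrichments of −0.03 and 0.05. Whether these windows share reads was not tested.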
